A study of Mus musculus with 30 samples.

Results

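Aire-GFP+ medullary thymic epithelial cells of Aire-KO mice were compared with those of WT mice, using 5 of the 30 libraries of the series: 3 WT and 2 Aire-KO. The libraries were chosen by their labels, which name the C57BL/6J strain, female mice 4 to 6 weeks of age, the cell population Aire-GFP+ mTECs and no treatment. Each library was made from 1000 sorted cells of digested thymus after CD45+ cells had been removed, with oligo(dT) priming, Smart-seq2 amplification and Nextera XT fragmentation. The sources used here do not give how the knockout allele and the GFP reporter were built, or whether libraries of one genotype came from separate animals, so p-values measure only the spread between libraries. A group of 4 libraries from a broader sorted population, mTEChi of C57BL/6J females of the same age given PBS by ip injection (2 WT and 2 Aire-KO), served for one comparison of effects.

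Medullary thymic epithelial cells present the body's own proteins to developing T cells. Aire is a nuclear protein made in a subset of these cells, where it raises the transcription of many genes that are otherwise restricted to organs such as pancreas, liver, gut, skin or gland, and T cells that recognise the products are deleted or turned into regulatory T cells. Loss of Aire in mice and people leads to autoimmunity against those organs. Aire acts at promoters and enhancers that often carry little active chromatin, together with partners that release paused RNA polymerase II. The series asks which promoters Aire acts on and what prepares them.

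The 5 libraries held 6.62 to 12.7 M estimated counts. Levels are given as CPM, counts relative to the library total after TMM scaling, which adjusts for differences in composition between libraries, and levels of different genes are compared only as TPM, which also divides by transcript length. Of 17923 genes tested with edgeR, 41.3% passed an adjusted p of 0.05, with 19.0% higher and 22.3% lower in Aire-KO. Counts of called members in the gene lists and families below are to be read against these shares. The median log2 difference (Aire-KO minus WT) over all genes was -0.12 with TMM and -0.51 with scaling by library totals alone, and calls that do not survive that shift are named below. In bulk libraries, fewer cells that express a gene and less RNA per cell cannot be told apart. All 11 mTEC markers checked (Epcam, Aire, Cd80, Cd74, H2-Aa, Krt5, Krt14, Krt8, Tnfrsf11a, Fezf2 and Cd40) were present in each library at 28.7 CPM or more.

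Aire itself was measured in every library at close levels, and its transcripts were not. Summed over transcripts, Aire stood at 1603, 1686 and 1671 CPM in the WT libraries and at 1508 and 1774 CPM in the Aire-KO libraries, so the groups overlapped. The fitted log2 difference was -0.01 (SE 0.10, adjusted p = 0.938, edgeR). It was -0.41 with scaling by library totals (adjusted p = 0.00823) and 0.40 with an offset for effective transcript length (adjusted p = 0.00921, edgeR), so its direction depends on the scaling. Within the gene, however, the shares moved mainly between 4 of the 16 annotated transcripts, as the plot of Aire transcripts by library shows. The full-length coding transcript Aire-204, of 14 exons, held 21.1, 22.6 and 18.6% of Aire estimated counts in WT and 2.87 and 5.64% in Aire-KO. Aire-212, also coding with 14 exons, held 9.04, 9.86 and 10.7% in WT and 4.46 and 3.78% in Aire-KO. Aire-206, annotated as a target of nonsense-mediated decay, held 61.4, 60.6 and 64.7% in WT and 49.1 and 51.0% in Aire-KO. These transcripts span nearly the whole gene (chr10:78030022-78043610, minus strand, GRCm38), and each was lower in both Aire-KO libraries than in any WT library.

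Aire-210 moved the other way. It is annotated as a retained-intron transcript of 7 exons, covers only the part of the gene nearer its 3′ end (78030023 to 78038258) and starts 5322 bases downstream of Aire-204. Its share was 1.63, 1.70 and 1.52% in WT and 40.8 and 35.5% in Aire-KO, and its TPM was 27.0, 30.6 and 27.6 in WT and 460 and 464 in Aire-KO. The change in usage of Aire transcripts passed the test (adjusted p = 3.31e-06, edgeR diffSpliceDGE gene-level F test). Transcript shares are estimates from reads that overlapping transcripts have in common, and whether the shift reflects the altered allele or the choice of start was not tested.

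**Figure D1:**
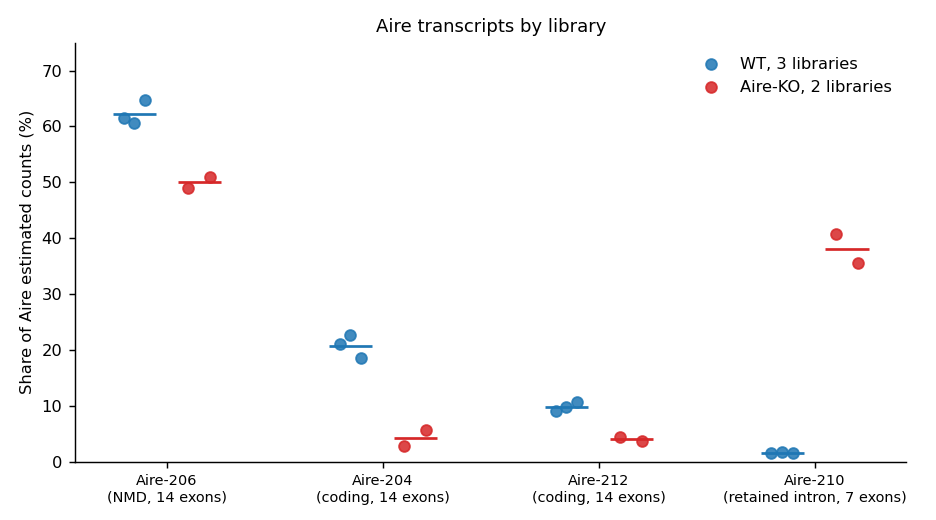
Share of Aire estimated counts (y axis, %) held by 4 Aire transcripts (x axis) in each library; points are libraries and bars are group means, for 3 WT and 2 Aire-KO libraries. Aire-210 lay between 1.52 and 1.70% in WT and at 35.5 and 40.8% in Aire-KO.

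The most abundant genes that fell with Aire loss were led by an antimicrobial pair. The rule for this group took the 12 protein-coding genes with the highest WT TPM among those called, at least 4-fold lower and with no overlap between groups (34.6% of all tested genes had both Aire-KO libraries below every WT library). S100a8, one subunit of calprotectin, a calcium- and zinc-binding protein of neutrophils and inflamed epithelium, had a mean of 1651 TPM in WT and 151 TPM in Aire-KO. Its CPM was 385, 400 and 508 in WT and 41.5 and 75.7 in Aire-KO, a log2 difference of -2.87 (SE 0.26, adjusted p = 1.75e-04, edgeR), and 17.6% of all tested genes were called lower by 2-fold or more. S100a9, the other calprotectin subunit, which lies next to it on chromosome 3, stood at 244, 164 and 217 CPM in WT and at 1.19 and 3.60 CPM in Aire-KO. Its log2 difference of -6.38 (SE 0.38) was thus far larger than that of its partner, while both were low in both Aire-KO libraries.

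Among the other 10 genes Reg3b, an intestinal antibacterial lectin, stood at 111, 267 and 56.3 CPM in WT and had no count in either Aire-KO library, which is at least 915-fold lower against a floor of 3 counts over the group. Pyy, a satiety hormone of the gut, was at 49.9, 72.1 and 64.3 CPM in WT and also had no count in Aire-KO (at least 393-fold lower). Gal, the neuropeptide galanin, was at 114, 67.6 and 125 CPM in WT and at 0.357 and 0.473 CPM in Aire-KO. WT libraries varied among themselves by up to several fold for Reg3b, and by less for Pyy and Gal, but no Aire-KO library came near any of them. In limma-voom Reg3b was not called (adjusted p = 0.105).

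Ptgds, a prostaglandin synthase of brain and testis, stood at 163, 131 and 153 CPM in WT and 6.07 and 1.14 in Aire-KO. Spp1, the secreted phosphoprotein osteopontin, was at 260, 260 and 126 CPM against 3.45 and 1.61. Fam25c was at 45.5, 80.6 and 52.3 CPM against 0 and 0.379. For these 3 genes the lower group kept at most a few CPM, and the log2 differences were -5.43 (SE 0.50), -6.44 (SE 0.47) and -8.06 (SE 0.57). With 1 library left out they ranged from -7.01 to -4.60 for Ptgds, from -7.04 to -5.94 for Spp1 and from -12.1 to -7.24 for Fam25c, the first of these without Aire-KO library 2, which leaves no Fam25c count in that group and a value set by the fit's prior count.

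Other members of the group were lowered but still present. Sprr1a, a precursor of the cornified envelope of skin, was at 161, 188 and 197 CPM in WT and 28.1 and 44.2 CPM in Aire-KO (log2 -2.33, SE 0.21). Pcp4, a calmodulin regulator of Purkinje cells, was at 107, 121 and 133 CPM against 10.8 and 10.1 (log2 -3.52, SE 0.17). Fabp6, the bile acid carrier of the ileum, was at 46.9, 76.2 and 58.1 CPM against 6.54 and 17.5 (log2 -2.31, SE 0.39). Junb, a subunit of the AP-1 transcription factor, was at 189, 414 and 481 CPM against 77.2 and 65.8 (log2 -2.34, SE 0.36, adjusted p = 0.00168, edgeR). The WT spread of Junb was the widest of these 4 relative to its distance from Aire-KO.

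The promoters of Aire and of Reg3b and Fam25c, from the group that fell, are shown because each carries a TATA box core, 5′-TATAAA-3′, starting 29 bases before its RefSeq start, where that element directs transcription of many tissue-specific genes; that of Ptgr1 shows a CA repeat, an alternating sequence that can take the left-handed Z form named in the title of the series. Each run is 150 bases long, from 173 to 24 bases before the start, read 5′ to 3′ on the gene's strand from RefSeq (GRCm38.p6), with the motif in capitals.
Aire: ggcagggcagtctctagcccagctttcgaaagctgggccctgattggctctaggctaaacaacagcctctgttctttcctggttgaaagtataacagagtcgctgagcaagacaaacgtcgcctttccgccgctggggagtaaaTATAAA
Reg3b: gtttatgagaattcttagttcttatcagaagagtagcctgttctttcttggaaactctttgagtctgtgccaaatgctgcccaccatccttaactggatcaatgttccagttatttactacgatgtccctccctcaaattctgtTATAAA
Fam25c: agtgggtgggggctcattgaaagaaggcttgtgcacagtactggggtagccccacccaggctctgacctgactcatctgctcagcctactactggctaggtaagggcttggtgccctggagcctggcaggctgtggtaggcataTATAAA
Ptgr1: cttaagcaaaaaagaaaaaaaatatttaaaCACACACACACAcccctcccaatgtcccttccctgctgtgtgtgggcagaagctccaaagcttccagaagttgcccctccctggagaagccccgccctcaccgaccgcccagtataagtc
They lie at chr10:78043634-78043783 (minus strand) for Aire, chr6:78370712-78370861 (plus) for Reg3b, chr14:34355417-34355566 (minus) for Fam25c and chr4:58987102-58987251 (minus) for Ptgr1. Among 32851 RefSeq promoters, 250 bases before to 50 bases after the start, 1.99% had 5′-TATAAA-3′ on the gene's strand starting 20 to 40 bases before the start and 13.6% had it anywhere on either strand. The 12-base CA repeat, 5′-CACACACACACA-3′, was in 1.01% of the 32851 promoters on either strand, and in Ptgr1 it starts 143 bases before the start. Reg3b, Fam25c and Ptgr1 were chosen only among genes whose RefSeq start lay within 50 bases of the start of their most abundant transcript. Among such genes called lower at least 2-fold with that repeat in this window, Ptgr1, a reductase of prostaglandins, had the highest WT TPM (26.9). It stood at 62.3, 69.8 and 18.8 CPM in WT and 6.66 and 12.1 CPM in Aire-KO (log2 -2.41, SE 0.55, adjusted p = 0.00983, edgeR). It was not called in limma-voom (adjusted p = 0.058) or without Aire-KO library 1 (adjusted p = 0.075, edgeR). Only 78.8% of 17066 tested protein-coding genes had a promoter in the reference table, below the 80% needed, so a comparison of motifs between lower and higher genes is void and is not given.

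The abundant genes that rose were of other kinds. The 12 with the highest Aire-KO TPM among protein-coding genes called, at least 2-fold higher and with no overlap (29.3% of all tested genes had both Aire-KO libraries above every WT library and 7.49% were called higher by 2-fold or more) held 3 genes of antigen presentation on MHC class II and 4 mitochondrially encoded subunits of the respiratory chain. H2-Ab1, the beta chain of the I-A molecule, stood at 18578, 18569 and 18510 CPM in WT and at 44173 and 44998 CPM in Aire-KO, or 2.40-fold higher. H2-Aa, its alpha chain, was 2.22-fold higher and H2-Eb1 2.03-fold higher. Mitochondrially encoded mt-Co3 was 2.98-fold, mt-Cytb 2.59-fold, mt-Co2 2.14-fold and mt-Co1 2.02-fold higher. The spread within each group was small against these differences, as the plot of abundant genes shows.

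Ftl1, a ferritin subunit that stores iron, was at 3156, 2697 and 2877 CPM in WT and 7929 and 8676 CPM in Aire-KO (2.85-fold). Tmsb4x, the actin-binding thymosin beta 4, was at 1419, 1191 and 1484 CPM against 3720 and 4590 (3.04-fold). Cd52, a surface glycoprotein best known from lymphocytes, was at 280, 502 and 350 CPM against 1007 and 1638 (3.50-fold). Among lymphocyte markers, given in full below, 0 of 10 tested thymocyte markers and 1 of 6 B cell markers, Cd79b, rose. The summed level of B cell markers was 47.1 to 58.8 CPM in WT and 83.3 to 96.5 CPM in Aire-KO. That of thymocyte markers was 65.7 to 85 CPM in WT and 32.9 to 53.5 CPM in Aire-KO. The part of other cells in the rise of Cd52 was not tested.

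A pair of tissue-restricted genes were also among the abundant genes that rose. Csn2, beta-casein, the major milk protein, stood at 1411, 1000 and 897 CPM in WT and at 3855 and 4420 CPM in Aire-KO, a log2 difference of 1.91 (SE 0.18, adjusted p = 1.87e-04, edgeR). Calcb, a calcitonin-related neuropeptide, was at 1255, 1224 and 1310 CPM in WT and 3037 and 3145 CPM in Aire-KO (2.45-fold). Both thus lay far above the WT range in both Aire-KO libraries.

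**Figure D2:**
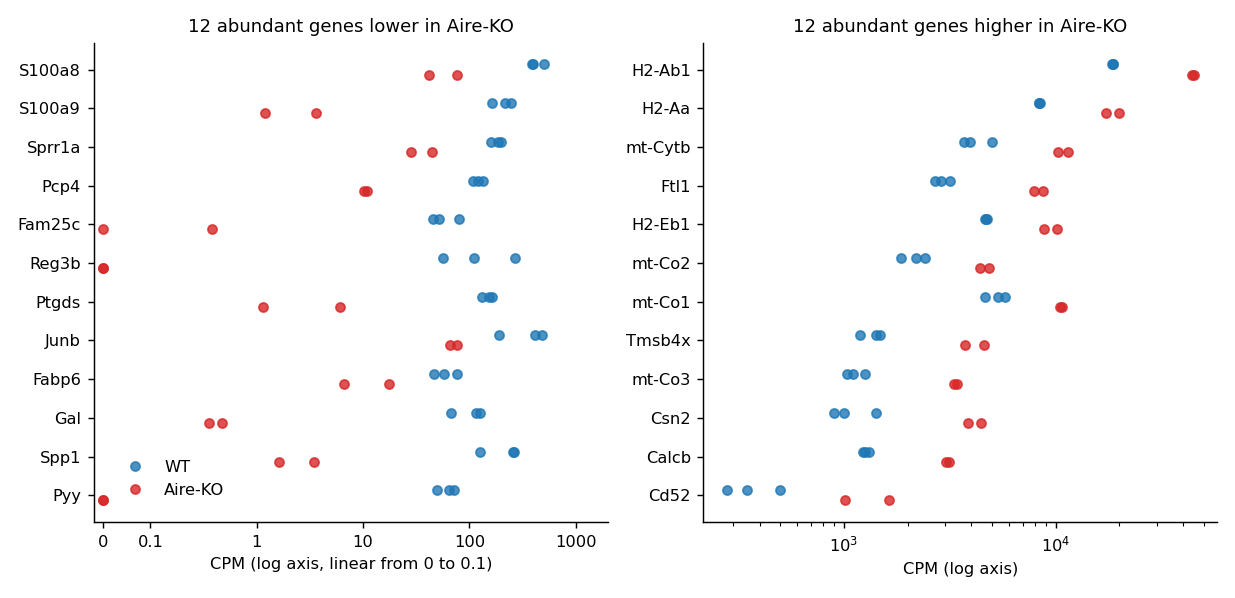
CPM per library (x axis, log scale) of the 12 abundant genes that fell (left, axis linear from 0 to 0.1) and the 12 that rose (right) with Aire loss; each point is a library, 3 WT and 2 Aire-KO. No Aire-KO point overlaps the WT points of the same gene, which the rule required, and Reg3b and Pyy lie at 0 in both Aire-KO libraries.

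Over lists of genes restricted to 12 tissues or tissue groups, 100 of 152 tested members fell and 9 rose, against 22.3 and 19.0% of all genes. In the pancreas list 12 of 14 tested genes fell and 0 rose, with a median log2 difference of -5.69 against -0.12 for all genes. The 2 that were not called were the digestive enzymes Cpb1 and Amy2a5 (adjusted p = 0.0584 and 0.143, edgeR), named after their values were seen; Cpb1 was called with library totals (adjusted p = 0.0407) and without WT library 3 (adjusted p = 0.0316, edgeR). Ppy, pancreatic polypeptide, stood at 29.9, 50.4 and 52.7 CPM in WT and at 0 in both Aire-KO libraries (at least 280-fold lower). Ins2, insulin, was at 15.5, 21.7 and 14.5 CPM in WT and at 0 in both (at least 109-fold lower), and Sst, somatostatin, at 10.1, 16.1 and 7.75 CPM and 0 (at least 71.6-fold lower). None of these 3 hormones kept a single count in Aire-KO.

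Among liver genes 11 of 15 fell and 0 rose (median -4.32). Fgg and Fgb encode chains of fibrinogen and Alb serum albumin. Fgg stood at 62.5, 82.2 and 64.2 CPM in WT and 0.119 and 0 CPM in Aire-KO. Fgb was at 50.9, 8.2 and 52.8 CPM in WT and 0 in both Aire-KO libraries (at least 236-fold lower), and Alb at 6.50, 8.37 and 10.7 CPM and 0 (at least 53.8-fold lower). One WT library was thus far below the others for Fgb, yet still above both Aire-KO libraries, and limma-voom did not call the gene (adjusted p = 0.14).

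In stomach and intestine 15 of 16 tested genes were lower and 0 higher (median -4.89). Gkn1, a protein of the gastric surface, was at 25.6, 22.3 and 12.8 CPM in WT and 0 in both Aire-KO libraries (at least 128-fold lower). Its paralog Gkn2 ranged from 1.70 to 25.9 CPM in WT and was at 0 in Aire-KO (at least 74.2-fold lower). It was not called in limma-voom (adjusted p = 0.107) or without Aire-KO library 2 (adjusted p = 0.0556, edgeR). Tff1, a trefoil peptide of gastric mucus, was at 42.0, 32.4 and 53.5 CPM against 0.238 and 0. The members that fell least were Reg3g, at 1528, 1768 and 1819 CPM in WT and 1112 and 1308 CPM in Aire-KO (log2 -0.49, adjusted p = 0.00976, edgeR), and Fabp1 (log2 -1.10); these 2 were named after their values were seen, and without Aire-KO library 1 neither was called (adjusted p = 0.0725 and 0.185, edgeR), nor was Fabp1 without WT library 1 (adjusted p = 0.0731, edgeR). Reg3g and Reg3b encode closely related lectins, and the first kept most of its level while the second kept no count.

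In the list of salivary, lacrimal and mammary gland genes 7 of 11 fell and 1, Csn2, rose (median -6.17). Dcpp1 and Dcpp2, secreted proteins of salivary gland that are near copies of one another, stood at 22.8, 24.3 and 46.7 CPM and at 8.85, 15.0 and 20.9 CPM in WT. In Aire-KO, Dcpp1 was at 0 in both libraries (at least 198-fold lower) and Dcpp2 at 0.238 and 0 CPM. Wap, whey acidic protein, was at 7.46, 3.88 and 11.5 CPM in WT and 0 in both Aire-KO libraries. Milk proteins therefore split, with Wap lost and Csn2 raised to 3.75-fold; Csn1s1, another casein named after its values were seen, was at 52.1, 20.7 and 12.8 CPM in WT and 0.357 and 0.379 CPM in Aire-KO (adjusted p = 0.0532 in limma-voom).

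Lung and airway genes fell in 6 of 9 cases with 0 higher (median -3.59). Scgb1a1, the secretoglobin of airway club cells, was at 40.5, 39.0 and 42.2 CPM in WT and 0.119 and 0 CPM in Aire-KO. Sftpc, surfactant protein C, was at 6.77, 24.4 and 9.64 CPM and Scgb3a1 at 6.22, 3.79 and 7.18 CPM in WT, and neither had a count in Aire-KO (at least 86.1-fold and 36.2-fold lower). Scgb1a1 was even across the WT libraries, whereas Sftpc was not.

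Epidermal, retinal and neural lists held both directions. Of 14 skin and tongue genes 7 fell and 1 rose (median -1.52): Krt13, a keratin of tongue and oesophagus, was at 9.26, 24.2 and 16.2 CPM in WT and 0 and 0.0946 CPM in Aire-KO, while Dsg1a, a desmosomal cadherin, was at 96.9, 75.5 and 83.4 CPM against 127 and 138. Of 10 retina and lens genes 6 fell and 1 rose (median -2.88). Cryaa, a lens crystallin, was at 47.3, 53.0 and 53.5 CPM in WT and 0.238 and 0 CPM in Aire-KO, and Gnat1, the rod transducin, was at 34.3, 28.8 and 24.6 CPM against 48.4 and 47.6. Dsg1a and Gnat1 lay above the WT range in both Aire-KO libraries, but neither was called with scaling by library totals (adjusted p = 0.173 and 0.17) or without Aire-KO library 2 (adjusted p = 0.0547 and 0.0588, edgeR), nor was Gnat1 without Aire-KO library 1 (adjusted p = 0.0602, edgeR).

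Of 13 nervous system genes 9 fell and 3 rose (median -2.43). Tac1, the precursor of substance P, stood at 23.8, 9.26 and 13.2 CPM in WT and 0.595 and 0.189 CPM in Aire-KO. Nefl, a neurofilament subunit, ranged from 2.55 to 74.6 CPM in WT and was at 0 and 0.0946 CPM in Aire-KO, and was not called in limma-voom (adjusted p = 0.314) or without Aire-KO library 1 or 2 (adjusted p = 0.0712 and 0.077, edgeR). Those that rose were components of synaptic vesicle release, Snap25 and Syt1, and the myelin protein Mbp. Snap25 was at 9.95, 5.91 and 11.1 CPM in WT and 28.9 and 30.0 CPM in Aire-KO (log2 1.72, SE 0.28), and Syt1 at 185, 204 and 191 CPM against 322 and 372 (log2 0.84, SE 0.11). Mbp was at 45.9, 66.9 and 43.5 CPM against 73.4 and 90.5 (log2 0.65), and lost its call with library totals (adjusted p = 0.366) and with an offset for effective length (adjusted p = 0.612, edgeR). It was also lost without Aire-KO library 1 or 2 or WT library 1 or 3 (adjusted p of 0.0565 to 0.201, edgeR).

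The remaining tissue lists followed the same pattern with 1 or no exception each. Muscle had 6 of 16 lower and 0 higher (median -1.47), with Actc1, cardiac actin, at 22.7, 11 and 21.4 CPM in WT and 0 in both Aire-KO libraries. Kidney and urinary tract had 6 of 10 lower and 1 higher (median -2.21); Upk1b was at 12.9, 13.7 and 11.9 CPM in WT and 0 in both Aire-KO libraries (at least 81.0-fold lower), while Upk1a, another uroplakin of bladder epithelium, was at 14.1, 11.5 and 23.2 CPM against 37.0 and 28.2. Thyroid, adrenal and pituitary had 9 of 13 lower and 1 higher (median -3.27); Cyp11a1, which starts steroid synthesis, was at 43.1, 13.5 and 28.5 CPM against 1.19 and 0.946, while Gh, growth hormone, was at 20.9, 9.08 and 12.6 CPM against 28.9 and 28.0. Neither Upk1a nor Gh was called with library totals (adjusted p = 0.149 and 0.148) or without Aire-KO library 1 (adjusted p = 0.161 and 0.117, edgeR). Each was also lost without Aire-KO library 2 or WT library 2, Upk1a without WT library 1 and Gh without WT library 3 (adjusted p of 0.0588 to 0.113, edgeR).

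In testis and ovary 6 of 11 genes fell and 1 rose (median -3.31). The genes for 2 proteins of the egg coat went opposite ways. Zp3 was at 10.6, 5.38 and 22.9 CPM in WT and 0.357 and 0.0946 CPM in Aire-KO (adjusted p = 0.0648 in limma-voom), and Zp2 was at 89.2, 102 and 94.6 CPM in WT and 289 and 232 CPM in Aire-KO (log2 1.45, SE 0.13, adjusted p = 1.63e-04, edgeR). Of the 9 members of the 12 lists that rose, Csn2, Snap25, Syt1 and Zp2 stayed called with library totals. With genes at 0 in both Aire-KO libraries placed at their bound, the median was -5.30 for pancreas and -5.14 for the glands, and was unchanged in the other 10 lists.

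**Figure D3:**
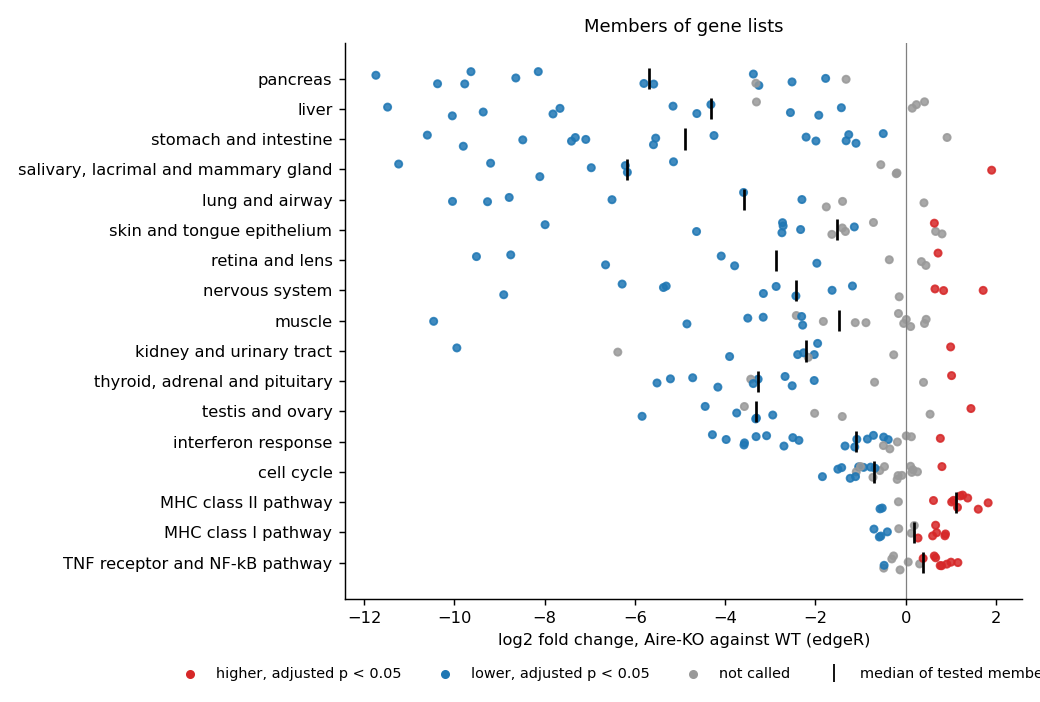
log2 fold change (Aire-KO against WT, edgeR, x axis) of each tested member of 17 gene lists (y axis), with the list median as a vertical bar; vertical scatter within a list is only for legibility. Medians of the 12 tissue lists lie between -6.17 and -1.47, and that of MHC class II lies at 1.11.

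Neighbouring genes of clustered families fell together over long stretches, here described as runs of adjacent tested protein-coding genes that were each called lower (22.3% of all tested genes were). A run of 16 genes on chromosome 11 (99415666 to 100193246, 778 kb) held mainly type I keratins and keratin-associated proteins from Krt12 to Krt9, with a median log2 difference of -3.86; Krt9 was not called with any 1 of the 5 libraries left out (adjusted p of 0.0599 to 0.127, edgeR). It included Krt19, a keratin of simple epithelia, at 24.1, 25.7 and 22.7 CPM in WT and 5.24 and 12 CPM in Aire-KO, and Krt20 of gut epithelium, at 195, 123 and 157 CPM against 100 and 117, which was the smallest change of the run (log2 -0.54, adjusted p = 0.0668 in limma-voom). Krt20 was called in edgeR without WT library 2 but with none of the other 4 left out in turn (adjusted p of 0.0772 to 0.24). On chromosome 7 a run of 15 kallikrein proteases from Klk14 to Klk1b9 (43690418 to 43980376, 290 kb) had a median of -5.10. Klk14 was at 28.6, 31.2 and 35.9 CPM in WT and 0 and 0.0946 CPM in Aire-KO, and Klk6 at 34.4, 9.08 and 27.1 CPM against 0 and 0 (at least 149-fold lower). Every gene named in these runs, which held only called genes, was lower in both Aire-KO libraries than in any WT library, as were 34.6% of all tested genes.

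A second run on chromosome 7 (17972124 to 18821607) held 15 genes, mainly of the Psg family, the pregnancy-specific glycoproteins of placenta (median -5.19). Psg17 was at 18.8, 16.7 and 6.99 CPM in WT and 0.119 and 0.284 CPM in Aire-KO. On chromosome 4, a run of 16 genes from Mup4 to Zfp37 (59956804 to 62231047) held 15 major urinary proteins, pheromone carriers of liver and glands (median -6.58), and Zfp37 was not called with any 1 of the 5 libraries left out (adjusted p of 0.0852 to 0.155, edgeR). On chromosome 2, a run of 10 genes from Fcna to Gm13539 (25624666 to 25787022) held mainly lipocalins and odorant-binding proteins with a median of -9.69. Obp2a was at 31.5, 23.0 and 31.1 CPM in WT and 0 in both Aire-KO libraries (at least 180-fold lower), whereas Bmyc within the same run was at 33.9, 26.6 and 23.2 CPM against 17.6 and 14.6 (adjusted p = 0.145 without Aire-KO library 2, 0.058 without Aire-KO library 1 and 0.0618 without WT library 1, edgeR). Members of the Mup, Psg and Klk1b groups are near-identical copies that share reads, so the split between single members is uncertain. With genes at 0 in Aire-KO placed at their bound, the 5 run medians were -3.14 (Krt12 to Krt9), -5.10 (Klk14 to Klk1b9), -4.89 (Psg), -5.20 (Mup4 to Zfp37) and -6.37 (Fcna to Gm13539).

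Families were also counted genome-wide. All 15 of 15 tested major urinary proteins fell, as did 21 of 26 kallikreins, 21 of 29 Sprr and late cornified envelope genes, 7 of 9 lipocalins and 11 of 13 BPI fold proteins, with 0, 0, 0, 0 and 1 member higher. Keratins fell in 32 of 50 cases and 2 rose, namely Krt8 and Krt18, the keratin pair of simple epithelium. Krt8 stood at 1438, 1361 and 1419 CPM in WT and 2957 and 3187 CPM in Aire-KO, and Krt18 at 1109, 1137 and 1192 CPM against 3323 and 3612. Krt8 and Krt18 therefore rose by 2.19-fold and 3.03-fold while most others of the family fell.

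Olfactory and vomeronasal receptors, which are also tissue-restricted, showed little. Of 219 olfactory receptors tested 19 fell and 9 rose (median 0.10), and of 115 vomeronasal receptors 5 fell and 2 rose (median 0.05). Their median WT levels were 2.13 and 2.65 CPM, so few counts stood behind each gene. Zinc finger genes of the Zfp group fell in 34 and rose in 37 of 354 cases (median -0.09). With library totals the balance differed in each of these 3 families, with 24 lower and 4 higher olfactory receptors (median -0.30), 8 lower and 1 higher vomeronasal receptors (median -0.34) and 84 lower and 15 higher Zfp genes (median -0.48).

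Genes of housekeeping complexes rose more often than they fell with TMM. The shares below are to be read against 19.0% higher over all genes and 61.6% among protein-coding genes with a mean of 100 TPM or more. Complex I of the respiratory chain, counted with its assembly factors, had 38 of 46 genes higher (82.6%) and 0 lower (median 0.74). Proteasome genes rose in 31 of 47 cases (66.0%), near the share of abundant genes, and fell in 3 (median 0.56). Ribosomal protein genes rose in 33 of 78 (42.3%), below that share, and fell in 1 (median 0.29). The last direction depends on scaling: with library totals 10 ribosomal protein genes were higher and 19 lower (median -0.11), while complex I kept 22 higher and 1 lower and the proteasome 19 higher and 6 lower. Among 13 mitochondrially encoded genes 7 rose and 1, mt-Nd5, fell, from 1377, 1211 and 1026 CPM in WT to 782 and 897 CPM in Aire-KO; it was named after its values were seen and was not called without Aire-KO library 1 (adjusted p = 0.11, edgeR).

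The share of genes that rose went up with abundance. Grouped by mean TPM over the 5 libraries, protein-coding genes of 100 TPM or more were higher in 61.6% and lower in 9.29% of 1281 cases. At 20 to 100 TPM the shares were 34.5 and 18.6% of 3333, at 5 to 20 TPM 19.0 and 24.9% of 5014, and at 1 to 5 TPM 7.70 and 26.5% of 5272. Abundant and rare genes thus split in opposite directions, and because CPM is relative to the total, a rise of abundant genes and a fall elsewhere are not independent measurements.

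Among the genes of antigen presentation, the class II pathway rose as a group with a pair of exceptions. Of 12 tested members 9 rose and 2 fell (median 1.11). The largest increases outside the H2-A and H2-E genes were those of Ctss, cathepsin S, which trims the invariant chain, at 387, 376 and 398 CPM in WT and 1314 and 1437 CPM in Aire-KO, and H2-Ob, at 146, 189 and 154 CPM against 514 and 483. Cd74, the invariant chain itself, was at 6482, 8578 and 8531 CPM in WT and 5558 and 5424 CPM in Aire-KO (log2 -0.52, SE 0.12, adjusted p = 0.0119, edgeR), and Lgmn, a lysosomal protease, fell from 33.3, 32.1 and 35.2 CPM to 24.6 and 20.7 CPM. Without Aire-KO library 2 neither Cd74 nor Lgmn was called (adjusted p = 0.0688 and 0.177, edgeR), nor was Cd74 without Aire-KO library 1 (adjusted p = 0.0534) or Lgmn without any 1 of the other 4 libraries (adjusted p of 0.0513 to 0.0767, edgeR). The chain and the chaperoned molecules thus moved apart. The class I pathway held 6 higher and 4 lower of 13 (median 0.19 with TMM and -0.21 with library totals), with Psmb8 of the immunoproteasome at 372, 405 and 351 CPM against 719 and 658 and Erap1, a peptide trimmer, at 59.0, 53.5 and 55.5 CPM against 32.4 and 36.4 (adjusted p = 0.0525 without Aire-KO library 1, edgeR).

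Costimulatory and checkpoint genes rose in 5 and fell in 1 of 12 cases (median 0.47 with TMM, and 0.07 with library totals, where 3 were higher and 3 lower). Ctla4, a receptor of T cells that binds CD80 and CD86, was at 3.87, 14.8 and 11.8 CPM in WT and 157 and 149 CPM in Aire-KO. Tnfsf9, the 4-1BB ligand, was at 44.2, 31.9 and 32.4 CPM against 91.2 and 105, and Pdcd1lg2, the PD-L2 ligand of PD-1, at 47.7, 43.9 and 49.6 CPM against 109 and 97.1. Cd274, the other ligand of PD-1, went the opposite way, at 94.4, 111 and 109 CPM in WT and 72.8 and 73.4 CPM in Aire-KO (adjusted p = 0.073 without Aire-KO library 1 and 0.0732 without library 2, edgeR). Each of these 4 genes, picked for large changes among called members, separated the genotypes without overlap. Of the 12 tested members 6 lay above every WT library in both Aire-KO libraries and 2 below. Over all tested genes the shares were 29.3 and 34.6%.

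Thymic chemokines split by gene. Ccl25, which draws progenitors and thymocytes through CCR9, stood at 649, 541 and 567 CPM in WT and 2263 and 2252 CPM in Aire-KO, a log2 difference of 1.95 (SE 0.10, adjusted p = 1.83e-05, edgeR). Ccl19, a ligand of CCR7, was at 440, 452 and 255 CPM against 863 and 851. In contrast Ccl22, a CCR4 ligand, was at 217, 191 and 127 CPM in WT and 42.2 and 29.8 CPM in Aire-KO, and Xcl1, which attracts XCR1+ dendritic cells, ranged from 2.93 to 21.2 CPM in WT and was at 0.833 and 0 CPM in Aire-KO (adjusted p = 0.127 in limma-voom, and 0.0813 without Aire-KO library 2 and 0.052 without WT library 2 in edgeR). In all 3 of the 14 chemokine and adhesion genes tested rose and 5 fell (median -0.65), or 21.4 and 35.7%, against 19.0 and 22.3% of all genes.

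The TNF receptor and NF-kB pathway, through which RANK and CD40 signals mature mTECs, had 8 genes higher and 1 lower of 15 (median 0.39 with TMM and -0.01 with library totals, where 4 were higher and 4 lower). Tnfrsf11a, which encodes RANK, was at 112, 89.6 and 88.3 CPM in WT and 213 and 218 CPM in Aire-KO. Nfkb1 was at 110, 99.2 and 102 CPM against 205 and 212, and Map3k14, the kinase of the noncanonical arm, at 39.1, 36.5 and 50.1 CPM against 85.1 and 73.0. Rela was the member that fell, from 50, 50 and 45.0 CPM to 34.3 and 35.2 CPM (adjusted p = 0.13 without Aire-KO library 1, 0.113 without Aire-KO library 2, and 0.0564 and 0.073 without WT library 1 or 2, edgeR). Subunits of the same transcription factor family therefore changed in both directions.

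Transcription factors of thymic epithelium and of the mTEC subtypes that resemble peripheral cells were divided as well. Foxn1, which directs thymic epithelial fate, stood at 167, 159 and 201 CPM in WT and 65.3 and 60.6 CPM in Aire-KO (log2 -1.48, SE 0.14), and Ets1 at 13.4, 16.9 and 14.6 CPM against 5.83 and 3.79. Fezf2, which drives tissue-restricted genes apart from Aire, was at 172, 182 and 176 CPM against 388 and 382 (log2 1.12, SE 0.09), and Irf8 at 156, 245 and 271 CPM against 567 and 548. Over the list of thymic epithelial regulators 3 rose and 4 fell of 16 (median -0.04), shares near the 19.0 and 22.3% of all genes.

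Regulators of mimetic cells, the mTEC subtypes that adopt peripheral programmes, rose in 2 and fell in 7 of 15 cases (median -0.90). Foxi1, of ionocytes, was at 10.2, 16.8 and 19.2 CPM in WT and 0.357 and 0 CPM in Aire-KO, and Hnf4a, of gut and liver, at 14, 6.70 and 2.46 CPM against 0.238 and 0.0946 (adjusted p = 0.0788 in limma-voom). Insm1, of neuroendocrine cells, was at 19.1, 16.5 and 15.3 CPM in WT and 75 and 88.2 CPM in Aire-KO (log2 2.27, SE 0.16), and Foxa1 at 3.87, 6.52 and 5.29 CPM against 10.9 and 13.2 (adjusted p = 0.0934 with library totals, 0.113 without Aire-KO library 2 and 0.0509 without WT library 3, edgeR). The genes of the cells themselves fell more often than they rose. Of 12 microfold genes 7 fell and 2 rose, and 4 of 9 ionocyte and 4 of 13 tuft cell genes fell and 0 rose. Over all genes 22.3% fell and 19.0% rose, and the 30.8% of tuft cell genes that fell was near the share of all genes. Gp2, the microfold receptor for bacteria, was at 308, 221 and 260 CPM in WT and 28.9 and 41.0 CPM in Aire-KO, and Dclk1, a tuft cell kinase, at 25.2, 19.3 and 25.5 CPM against 8.33 and 6.15 (adjusted p = 0.348 with the effective length offset, edgeR).

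Markers of the stages before and after Aire did not move as blocks. Among genes of mature mTECs after Aire expression 4 of 12 fell and 0 rose (median -0.60), against 22.3 and 19.0% of all genes. Those that fell were led by Pigr, the polymeric immunoglobulin receptor, at 62.8, 52.2 and 153 CPM in WT and 13.1 and 9.94 CPM in Aire-KO. Among immature mTEC genes 4 rose and 4 fell of 12 (median 0.02, and -0.38 with library totals). Krt5 of basal cells was at 99.5, 87.7 and 119 CPM in WT against 28.7 and 46.9, while Itga6, a laminin receptor, was at 99.8, 102 and 100.3 CPM against 216 and 229. Of 15 junction genes 2 rose and 4 fell (median -0.28), against 19.0 and 22.3% of all genes. With library totals 0 were higher and 8 lower. Jup, plakoglobin of desmosomes, was at 98.4, 125 and 135 CPM in WT and 30.9 and 42.1 CPM in Aire-KO.

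Interferon-response genes fell in 16 of 22 cases and rose in 1 (median -1.10). Ifit3 stood at 48.7, 62.0 and 39.5 CPM in WT and 5.12 and 3.31 CPM in Aire-KO (log2 -3.58, SE 0.30). Isg15, a ubiquitin-like modifier, was at 13.3, 29.6 and 23.6 CPM against 0.952 and 1.80, and Oas2, a sensor of double-stranded RNA, at 2.21, 6.79 and 7.18 CPM against 0.357 and 0.189. Ifit1, which binds viral RNA ends, was the member that rose, from 160, 204 and 176 CPM to 324 and 292 CPM, and with library totals it was not called (adjusted p = 0.0526, edgeR). Genes of the Ifit and Oas groups lie in clusters of related copies, and within them Ifit1 and Ifit3 went opposite ways.

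Sensors of nucleic acids and proteins that bind the Z form fell in 3 and rose in 1 of 14 cases (median -0.28). Over all genes 22.3% fell and 19.0% rose, so the share that fell was near that of all genes. Mavs, the mitochondrial adaptor of RNA sensing, was at 31.2, 33.3 and 37.3 CPM in WT and 17.3 and 17.5 CPM in Aire-KO. NRF2-response genes, the antioxidant programme, rose in 5 and fell in 3 of 16 (median 0.19): Me1, malic enzyme, was at 156, 173 and 144 CPM against 376 and 449, and Gstm1, a glutathione transferase, at 319, 330 and 331 CPM against 178 and 200. With library totals 5 sensors were lower and 0 higher, and 4 NRF2-response genes were higher and 4 lower (median -0.21).

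Cell cycle genes fell in 9 of 22 cases and rose in 1 (median -0.70), and with library totals 16 were lower and 0 higher. Mcm3, of the replicative helicase, was at 74.4, 81.2 and 64.8 CPM in WT and 30.1 and 11.2 CPM in Aire-KO, and Plk1, a mitotic kinase, at 64.3, 40.5 and 55.3 CPM against 15.8 and 21.7. Pcna, the sliding clamp of replication, was the member that rose, at 90.8, 65.1 and 86.6 CPM against 158 and 124 (adjusted p = 0.0903 with library totals and 0.0632 without Aire-KO library 1, edgeR). The Aire-KO libraries differed from each other most for Mcm3, yet both were below every WT library.

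Among known partners of Aire in transcription 6 were higher and 6 lower of 22 (median -0.06), shares near those of all genes, and with library totals 2 were higher and 10 lower (median -0.45). Sirt1, a deacetylase that acts on Aire, was at 100.2, 103 and 113 CPM in WT and 303 and 274 CPM in Aire-KO, and Cdk9, the kinase that releases paused polymerase, at 14.7, 16.1 and 18.6 CPM against 39.3 and 41.2. Polr2a, the large subunit of that polymerase, was at 46.4, 51.4 and 57.0 CPM in WT and 20.5 and 20.7 CPM in Aire-KO (log2 -1.33, SE 0.16), and Chd4, a remodeler, at 41.9, 33.7 and 39.7 CPM against 21.7 and 19.7. Chromatin and DNA methylation genes rose in 7 and fell in 2 of 19 (median 0.30), and with library totals 6 were higher and 5 lower (median -0.10). Dnmt3l, a cofactor of de novo methylation, was at 138, 142 and 215 CPM against 424 and 590. It overlaps the targeted gene Aire, and the libraries carry no strand information. The part of the Aire locus itself in the rise of Dnmt3l was not tested. Tet2, which oxidises methylcytosine, was at 37.0, 42.5 and 33.0 CPM against 79.5 and 104. The 2 that fell were Uhrf1 and Kdm6b. Uhrf1, which maintains methylation after replication, was at 104, 92.1 and 95.1 CPM against 26.4 and 11.8. Kdm6b, a demethylase of H3K27, was at 32.8, 32.1 and 30.8 CPM against 7.02 and 7.0.

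Markers of other cell types that a sort might carry were low or mixed, and their part in the results above was not tested. The counts of members that fell or rose are to be read against 22.3 and 19.0% of all genes. Over the 12 thymocyte markers the summed level was 65.7 to 85 CPM in WT and 32.9 to 53.5 CPM in Aire-KO, and of 10 tested 2, Cd4 and Ptprc, fell and 0 rose; Ptprc was not called without Aire-KO library 2 (adjusted p = 0.0697, edgeR). Dendritic cell and macrophage markers summed to 1092 to 1494 CPM in WT and 2218 to 2235 CPM in Aire-KO. Most of that sum was Lyz2, lysozyme, at 956, 889 and 1332 CPM against 2126 and 2135, while 5 of the 9 tested fell, among them C1qa, a complement gene of macrophages, at 23.6, 31.7 and 23.9 CPM against 4.28 and 3.31, and Adgre1, F4/80, at 50, 45.9 and 13 CPM against 0.476 and 0.284. Fibroblast markers summed to 92.2 to 138 CPM in WT and 265 to 345 CPM in Aire-KO, which was mainly Dcn, decorin, at 49.2, 44.7 and 41.0 CPM against 313 and 233, while Col1a1, the main collagen chain, was at 30.6, 49.0 and 16.5 CPM against 0 and 0.663. Adgre1 and Col1a1 were not called in limma-voom (adjusted p = 0.0748 and 0.0502). Members of these lists thus did not move together.

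B cell markers summed to 47.1 to 58.8 CPM in WT and 83.3 to 96.5 CPM in Aire-KO, with Cd79b higher and Cd79a lower of 6 tested. Endothelial markers summed to 25.9 to 32.1 CPM in WT and 34.9 to 38.7 CPM in Aire-KO. Cortical TEC markers summed to 956 to 1093 CPM in WT and 2245 to 2618 CPM in Aire-KO, mostly Tbata, a thymic gene, at 753, 706 and 765 CPM against 2045 and 2410, while Psmb11, the defining cortical proteasome subunit, fell from 32.3, 15.3 and 19.0 CPM to 9.16 and 7.29 CPM (adjusted p = 0.0935 without Aire-KO library 2, edgeR). Haemoglobin and other red cell transcripts separated the 2 Aire-KO libraries, at 128 and 1458 CPM, from each other more than from WT (335 to 634 CPM), and 0 of 5 were called, the smallest adjusted p being that of Hbb-bs (0.243 with both libraries and 0.00975 without Aire-KO library 1, edgeR). Rag2 of thymocytes, Pdgfra of fibroblasts and Cdh5 of endothelium were below 1 CPM in every library.

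Transcript usage within genes changed in 1104 of 8577 genes tested, or 12.9% (edgeR diffSpliceDGE gene-level F test, adjusted p under 0.05). This count is to be read with care. On simulated libraries, with the same variation for every transcript, 21.7% of such calls were false, against 4.20% for diffSplice in limma. In the real data diffSplice called 643 genes and shared 465 with the first test. With the replicate number as a block in edgeR, only 27 of the 1104 stayed called. The 12 genes chosen by rule, of which 11 are described, had 20 CPM or more in each group and a transcript whose share moved by 20 percentage points or more without overlap. Each printed p below is from the edgeR test, and all but Phip and Strip2 among them were also called by limma.

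In several of the 11 genes described, the largest share of estimated counts lay on one annotated transcript in WT and on another in Aire-KO. As for Aire, these shares are estimates from reads that overlapping transcripts have in common, and the error of that assignment is not known. Ikbkb-201 and Ikbkb-203, for instance, have 22 exons each, and Strip2-201 and Strip2-205 have 21 each. Ikbkb, which encodes the kinase IKK-beta of the NF-kB pathway, switched from the coding Ikbkb-201 (66.7, 68.4 and 64.6% of its counts in WT, 30.6 and 22.1% in Aire-KO) to Ikbkb-203, annotated as a target of nonsense-mediated decay (2.79, 1.88 and 6.30% in WT, 46.7 and 55.5% in Aire-KO, adjusted p = 8.12e-10, edgeR). Its summed level did not pass the test (209 CPM in WT and 269 CPM in Aire-KO, adjusted p = 0.0637, edgeR), though it did in DESeq2 (adjusted p = 0.0447). Ivns1abp, an actin-associated protein that binds an influenza protein, had 73.9 and 75% of its counts on Ivns1abp-202 in Aire-KO and under 0.002% in each WT library. Ivns1abp-201, annotated as coding like Ivns1abp-202, went from 87.1, 90.9 and 92.8% to 24.9 and 22.8%. The pair of transcripts start 41 bases apart and differ by an exon (14 against 15).

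In Ss18, a subunit of BAF chromatin remodelers, Ss18-210 with 4 exons rose from 3.18, 2.27 and 2.1% to 63.6 and 70.8%, while Ss18-203 with 10 exons fell from 73.2, 60.7 and 63.8% to 6.05 and 4.90%. The gene thus shifted toward a shorter transcript with a downstream start while the log2 difference in its level was -0.42.

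In 2 further genes the coding transcript with the largest share in WT held almost no estimated counts in Aire-KO. Tbk1, a kinase of innate immune signalling, had 62.7, 62.5 and 71.0% of its counts on the coding Tbk1-201 in WT and 0.0148 and 0.00632% in Aire-KO. A 2-exon processed transcript, Tbk1-202, held 30.2, 31.8 and 20.8% in WT and 68.9 and 67.2% in Aire-KO. Its TPM overlapped between groups, at 55.0, 62.3 and 38.7 in WT and 62.0 and 42.6 in Aire-KO. Tbk1-204, annotated as a target of nonsense-mediated decay, has 21 exons like Tbk1-201 and spans nearly the same stretch. It held 0.0642, 0.2045 and 0.0026% in WT and 31.1 and 32.8% in Aire-KO. A transcript of nearly full span thus kept a share, and the split between these overlapping transcripts is an estimate. Sardh, a mitochondrial enzyme of sarcosine breakdown, had 49.9, 51.2 and 45.6% on the coding Sardh-202 in WT and 0% in both Aire-KO libraries. With the replicate number as a block the calls of Tbk1 and Sardh were lost (adjusted p = 0.0579 and 0.0555, edgeR). In both genes the WT libraries were close to each other.

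Birc2, an inhibitor of apoptosis in the NF-kB pathway, dropped Birc2-204, which starts upstream, from 21.3, 18.7 and 18.7% to 0.607 and 0.740%, while the gene as a whole rose 2.13-fold. Prokr2, a G protein-coupled receptor, had no count on Prokr2-204 in any WT library and 24.2 and 15.8% in Aire-KO. Wdr1, an actin cofactor, lost Wdr1-205 from 18.9, 23.2 and 23.7% to 0% in both Aire-KO libraries. Fcgbp, a mucus protein, shifted between a pair of retained-intron transcripts, with Fcgbp-206 at 34.3, 30.3 and 28.2% in WT and 58.4 and 56.9% in Aire-KO. Strip2 and Phip, which limma did not call (adjusted p = 0.0797 and 0.184), gained Strip2-205 and Phip-201, a coding transcript each.

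**Figure D4:**
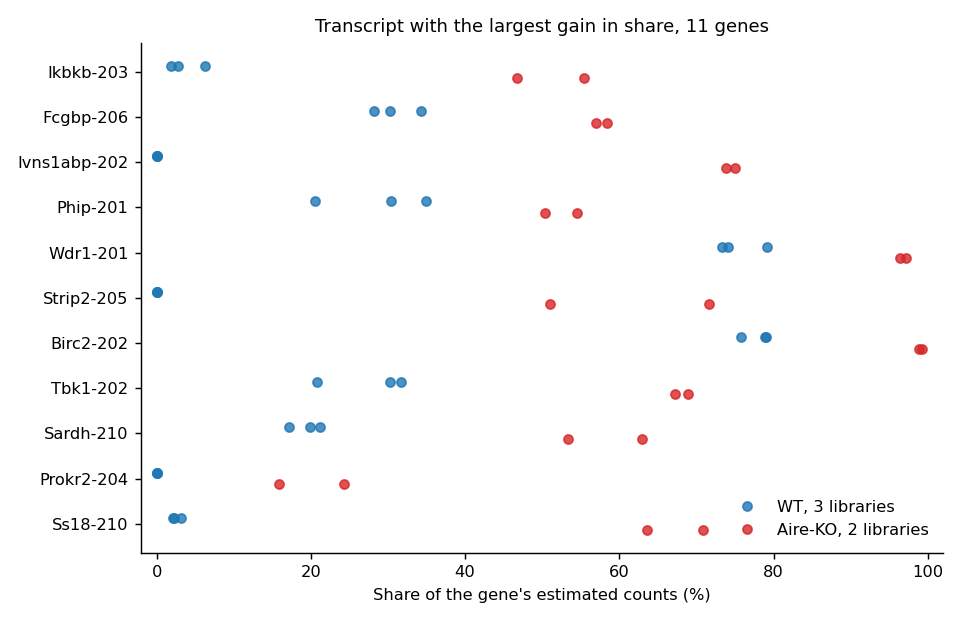
Share of each gene's estimated counts (x axis, %) held by the transcript that gained most with Aire loss in 11 genes (y axis), for 3 WT and 2 Aire-KO libraries; points are libraries. Ivns1abp-202, Strip2-205 and Prokr2-204 lie at about 0% in WT and at 15.8% or more in Aire-KO.

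The gained transcript more often started downstream than upstream. The count covered 371 called genes with 20 CPM or more in both groups. Each had a transcript whose share rose or fell by 20 points or more without overlap. In these genes the gained transcript started more than 500 bases downstream of the transcript that lost most in 45.8% and upstream in 11.9%. Over all 4774 tested genes of that abundance, called or not and of any size of change, the shares were 27.4 and 15.8%. Among the 768 called genes of that abundance and any size of change they were 38.8 and 14.5%. The gained transcript was the shorter one in 78.4% of the 371 genes and in 62.4% of the 4774. Oligo(dT) priming favours the 3′ end of transcripts, and whether priming, RNA length or promoter choice moved these shares was not tested.

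The effect of Aire loss in Aire-GFP+ cells was then compared with that in the broader mTEChi of PBS-treated mice, in one edgeR fit of all 9 libraries with a test of the difference between the effects. The mTEChi libraries were smaller (2.03 to 3.18 M counts), were counted with another tool and received PBS, so population, counting and injection cannot be told apart in levels, while a constant factor per gene cancels in the difference of effects. Of 17973 genes 6.65% differed: in 3.08% the effect in Aire-GFP+ cells lay above that in mTEChi and in 3.57% below. In this fit 19.1% of genes were higher and 22.4% lower in Aire-KO Aire-GFP+ cells, and 5.49% higher and 5.30% lower in Aire-KO mTEChi, where depth was lower. Among 740 genes lower with Aire loss in both populations, 38 differed in size, and the median log2 differences were -3.82 in Aire-GFP+ cells and -3.61 in mTEChi. Among 736 genes higher in both, 65 differed (medians 1.11 and 1.00). In 54 genes, 16 and 38, the calls had opposite signs.

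On the scale of this joint fit Aire stood at 1818, 1918 and 1896 CPM in WT and 1748 and 2035 CPM in Aire-KO Aire-GFP+ cells, but at 1368 and 1401 CPM in WT and 4336 and 3578 CPM in Aire-KO mTEChi. The effects differed by -1.50 on the log2 scale (SE 0.16, adjusted p = 8.35e-04, edgeR). Cells sorted on the reporter thus showed level Aire counts, and Aire-KO mTEChi were higher than WT by 1.52 on the log2 scale.

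The genes with the smallest p in which Aire-GFP+ cells lay below mTEChi were led by Slc39a1, a zinc importer, at 342, 363 and 357 CPM in WT and 99.3 and 90.4 CPM in Aire-KO Aire-GFP+ cells, and at 143, 161, 164 and 169 CPM in the 4 mTEChi libraries. Scgb1a1 fell from 45.9, 44.3 and 47.9 CPM to 0.138 and 0 CPM in Aire-GFP+ cells and was at 41.5 and 23.6 CPM in WT and 18.2 and 30.0 CPM in Aire-KO mTEChi (difference -8.70, SE 0.72, and -10.6 to -7.73 with 1 library left out). Foxn1 fell in Aire-GFP+ cells and rose in mTEChi, from 169 and 187 CPM to 297 and 269 CPM (difference -2.13, SE 0.20). Pa2g4, a growth regulator, differed by -2.14, Arc, a synaptic immediate early gene, by -2.44 and Sprr1a by -2.92. In mTEChi, 4 of these 6 genes other than Foxn1 and Sprr1a had log2 differences between -0.44 and 0.34, none of them called.

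In the other direction, Cacna1s, the calcium channel of skeletal muscle, rose from 41.1, 43.9 and 52.7 CPM to 224 and 258 CPM in Aire-GFP+ cells and was at 5.84 and 2.90 CPM in WT and 0 and 0.297 CPM in Aire-KO mTEChi (difference 7.01, SE 0.73, and 6.23 to 10.2 with 1 library left out). Snhg11 was at 247, 323 and 286 CPM against 362 and 388 in Aire-GFP+ cells and at 32.0 and 28.6 CPM against 6.30 and 5.06 in mTEChi (difference 2.82, SE 0.26). Its log2 difference within Aire-GFP+ cells was -0.03 with library totals (adjusted p = 0.871), and it was not called without Aire-KO library 1 or 2 or WT library 1 or 3 (adjusted p of 0.0808 to 0.197, edgeR). Fcer1g, a signalling chain of Fc receptors, rose in both, by 2.66 on the log2 scale in Aire-GFP+ cells and by 0.80 in mTEChi. Txnip, a regulator of redox state and glucose uptake, rose by 0.76 in the first (not called with library totals, adjusted p = 0.0525, edgeR) and fell by 1.05 in the second. The mitochondrial genes mt-Cytb and mt-Co1 rose by 1.39 and 1.04 in Aire-GFP+ cells and had log2 differences of -0.37 and -0.20, not called, in mTEChi (adjusted p = 0.112 and 0.254).

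**Figure D5:**
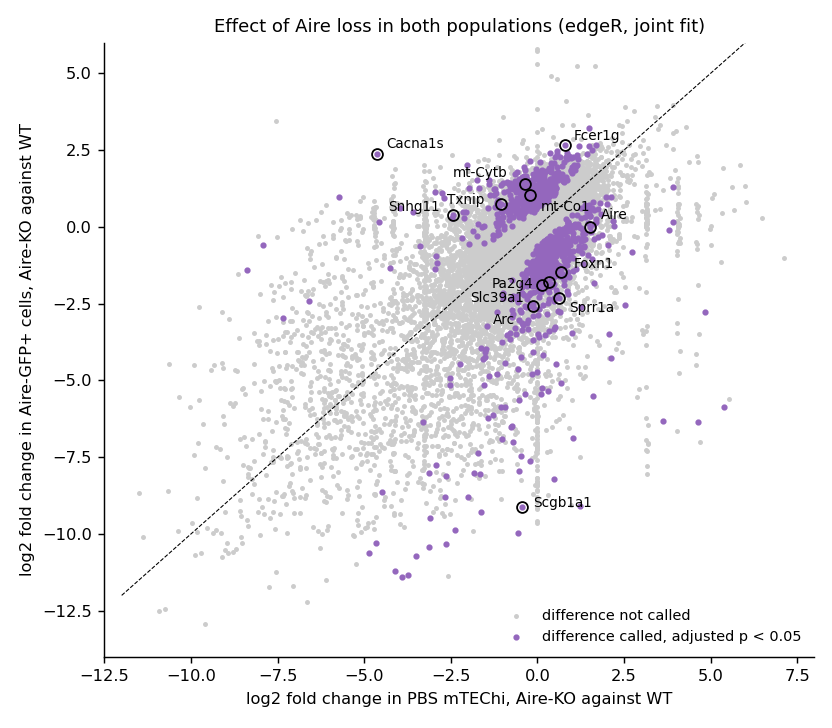
log2 fold change with Aire loss in Aire-GFP+ cells (y axis) against that in PBS mTEChi (x axis) for all 17973 genes of the joint edgeR fit; purple points have a called difference, circles mark the 12 genes named by rule and Aire, and the dashed line marks equal effects. Aire lies at 0.01 on the y axis and 1.52 on the x axis.

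Within the gene lists the number of genes that differed between the populations varied, against 6.65% of all genes. The microfold list had 6 of 12 that differed (4 above and 2 below), the class I list 5 of 13, the class II and immature mTEC lists 4 of 12 each, the dendritic cell and macrophage markers 4 of 10, and the liver list and the mimetic cell regulators 4 of 15 each. In the pancreas list 0 of 14 genes differed, with medians of -5.64 in Aire-GFP+ cells and -6.80 in mTEChi, and in the stomach and intestine list 0 of 15. Muscle genes had medians of -1.45 and 0.30 with 1 of 16 differing. Cell cycle genes were lower in 8 of 22 cases in Aire-GFP+ cells and in 0 in mTEChi, and 3 differed. Among the class II genes Cd74 differed: it fell in Aire-GFP+ cells, and in mTEChi it rose from 8310 and 7766 CPM to 15392 and 13628 CPM (difference -1.35, SE 0.17, adjusted p = 0.00206, edgeR).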

How the data were processed

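The labels describe Smart-seq2 RNA-seq (full-length cDNA, no molecular identifiers, no strand information) of sorted medullary cells. For the Aire-GFP+ libraries the authors deposited kallisto's estimated counts and TPM (scaled for depth and transcript length) for each of 118489 transcripts, per the file headers. For the mTEChi libraries the deposited values were whole-number read counts per gene symbol. The submitters' processing notes name STAR, featureCounts, kallisto, TopHat2 2.1.1, SAMtools 1.3.1 and build mm10, without saying which step used which. The 2 kinds of table were therefore made in different ways, and the comparison between the populations was made only on the change with Aire loss within each.

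Transcript names were matched to GENCODE M21 for 116816 transcripts, and the 1673 unmatched ones held 0.541 to 0.578% of the estimated counts. The deposited estimated counts were summed over 35999 gene symbols and rounded. Genes were tested with edgeR 4.0.16 (quasi-likelihood, TMM scaling, low-count filter, R 4.3.3) on the 5 libraries, with Benjamini-Hochberg adjustment at 0.05 over all genes tested. Transcript usage was tested with edgeR's diffSpliceDGE on transcripts with a mean of 10 estimated counts or more. The difference from mTEChi came from 1 edgeR fit with an interaction term. TMM factors were 1.10 to 1.13 in the WT libraries and 0.839 to 0.856 in the Aire-KO libraries. The biological coefficient of variation was 0.272, and no 2 replicates agreed within sampling noise. The labels used here do not tie replicates to separate animals, so p-values measure the spread between these libraries. Floors (3 counts over a group) cover counting error only. Near-identical paralogs and overlapping or antisense genes remain uncertain.

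Members, gene lists and tests were chosen with earlier results of these data known. The genes named were Aire, the 12 most abundant called protein-coding genes at least 4-fold lower and the 12 at least 2-fold higher with no overlap, up to 3 per direction in each list (5 CPM or more), the 3 most abundant members of each list marking another cell type, the 12 genes with the smallest usage p (20 CPM, 20 percentage points), up to 6 per direction for the difference from mTEChi, and up to 5 runs of neighbouring genes. Genes outside this rule that the text names were chosen after their values were seen.

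Simulated counts held 200 changed genes and gave every gene or transcript the same coefficient of variation, 0.27. In the gene and difference tests as many genes were raised as lowered. Whether the rates hold for the real data, where 41.3% of genes were called, was not tested. Among 17488 genes the gene test recovered 98.5% of 4-fold changes, with 3.9% of its calls false. Among 17461 genes it recovered 4% of 2-fold changes. The test of the difference from mTEChi recovered 38.5% of 4-fold and 100% of 16-fold differences. The usage test recovered 59.5% of changed genes among 8382, but 21.7% of its calls were false, against 9.71% for the Simes test and 4.2% for limma 3.58.1. Alternatives were library totals, an effective-length offset, DESeq2 1.42.0, other filters and tests, the replicate block and leaving out each library.

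Results for 2 genes that the rule or the lists would name are not reported here.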

Additional observations from a re-analysis of the deposited data

Results flagged for a closer look

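For 45 of the genes named, the change with Aire loss differed between Aire-GFP+ cells and PBS-treated mTEChi (adjusted p below 0.05 for the interaction term in edgeR's joint fit). Each value below is the log2 change in Aire-GFP+ cells minus that in mTEChi. The libraries of the 2 populations were quantified in different ways, and the part of this in the differences was not tested.

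Among tissue-restricted and secreted products the change in Aire-GFP+ cells lay below that in mTEChi by -9.40 for Actc1, -8.70 for Scgb1a1, -7.67 for Klk6, -6.79 for Klk14, -6.20 for Fam25c, -3.04 for S100a9 and -2.92 for Sprr1a. Actc1 and Klk6 had no count in either Aire-KO Aire-GFP+ library, so their values depend on the fit's prior count and are no bounds; against the floor of 3 counts these genes were at least 116-fold and 149-fold lower there. Immune genes with a difference in the same direction were Adgre1 (-5.75), C1qa (-3.44), Ccl22 (-2.32), Isg15 (-2.31), Cd4 (-1.62), Cd74 (-1.35), Lgmn (-1.03) and Cd80 (-1.01). Immediate-early, replication, transcription and other cellular genes were Junb (-2.79), Uhrf1 (-2.66), Arc (-2.44), Pa2g4 (-2.14), Foxn1 (-2.13), Slc39a1 (-2.03), Kdm6b (-1.94), Mcm3 (-1.90), Jup (-1.37), Polr2a (-1.34) and Wdr1 (-0.69). The difference for Aire itself was -1.50, with a log2 change of 0.01 in Aire-GFP+ cells and 1.52 in mTEChi in that fit.

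The change in Aire-GFP+ cells lay above that in mTEChi by 7.01 for Cacna1s, a muscle calcium channel subunit, and by 2.82 for the noncoding RNA Snhg11. Transcription factors and regulators on this side were Foxa1 (2.48), Insm1 (1.45), Cdk9 (1.25) and Txnip (1.81). The mitochondrial transcripts differed by 1.76 for mt-Cytb and 1.24 for mt-Co1. Immune and stromal genes were Fcer1g (1.86), Cd79b (1.59), Dcn (1.43), Ccl25 (0.86), Ctss (0.85) and Psmb8 (0.83). Structural genes were Itga6 (1.22), Krt18 (1.06), Tmsb4x (0.94) and Krt8 (0.66).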

How the results depend on the processing

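Of the 163 genes named at gene level, 111 kept their direction and their side of the threshold under every alternative run, as did 14 of 14 differences from mTEChi and 8 of 12 usage changes. All 12 tissue lists kept more lower than higher calls in each setting. With library totals in place of TMM, 1591 genes were called higher and 6250 lower, against 3410 and 4000, and the direction turned for Cd80 (-0.37, adjusted p = 0.027 in edgeR), Krt14 (-0.21, 0.17), Ikbkb (-0.035, 0.856), Phip (-0.032, 0.9) and Snhg11 (-0.030, 0.871). With an effective-length offset it turned for Aire (0.40, adjusted p = 0.00921), Cd80 (-0.028, 0.874) and Tbk1 (0.17, 0.599). With 1 library left out, Aire ranged from -0.12 to 0.12 (highest without Aire-KO library 1), Hbb-bs from -1.38 to 2.06 (lowest without Aire-KO library 2) and Cd80 from -0.011 to 0.065 (lowest without WT library 2); the cause was not tested.

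Leaving out 1 library at a time, with fewer samples by construction, gave 4785 to 6961 genes against 7410 (lowest without Aire-KO library 2), with 2262 to 3280 higher and 2523 to 3681 lower. Where 1 Aire-KO library remained, it was assumed to vary like the WT libraries. The 1104 usage changes became 443 with the Simes test, 643 with limma's diffSplice, 733 with transcripts of 50 counts or more and 715 to 1112 with a library left out (lowest without WT library 3). The 1195 differences from mTEChi became 547 with limma-voom, 1955 with no low-count filter and 407 to 1187 with 1 of the 9 libraries left out (lowest without mTEChi Aire-KO library 2, and over 1.5 times fewer for each library but Aire-GFP+ WT library 1); beyond fewer samples or genes tested, the cause was not tested.

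Deviations of same-numbered libraries from their group means correlated at 0.0624 and 0.0467 over 12659 genes, with 2 pairs. With 2 Aire-KO libraries their deviations mirror each other. Whether same-numbered libraries share more than a number therefore cannot be told from these values. The fit with the replicate block called 6702 genes, 27 usage changes and 754 differences from mTEChi. The comparison of promoter motifs was void, since 78.8% of the tested protein-coding genes had a promoter sequence, so its alternative motif length was not run. Depth of 6.62 to 12.7 M estimated counts limits statements on genes near the floor of 3 counts.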
